A study of Rattus norvegicus with 3 samples.

Results

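The core circadian clock is a loop of transcription factors that most cells carry, skeletal muscle among them. BMAL1 pairs with CLOCK, or with its relative NPAS2, and switches on the Period and Cryptochrome genes, whose proteins gather and then shut the pair off. The same pair drives Nr1d1, which encodes the repressor REV-ERB alpha that acts back on Bmal1, and Dbp, an output transcription factor. In muscle this loop is known to time metabolic genes, and transcripts of its arms peak at different hours of the day.

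The genes described are Bmal1, Clock, Npas2, Per1, Per2, Per3, Cry1, Cry2, Nr1d1 and Dbp. They were taken by name, as the probes whose RefSeq accession belongs to one of these 10 rat genes. All 10 were on the array, out of 15168 genes with a symbol, through 17 probes and 37 spots per array. Clock, Npas2 and Bmal1 each had 2 probes, Per3 and Dbp 3, and the other 5 genes had 1.

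Messenger RNA was measured on 3 one-colour arrays, which compare a denervated with a normal slow muscle and a fast with a slow muscle. One array held soleus taken 28 days after a stretch of about 5 mm of the left sciatic nerve was cut out at the gluteal level, 1 held normal plantaris, a faster calf muscle, and 1 held normal soleus, a slow postural muscle. All came from male rats aged 12 weeks on the Wistar Honnover background, and the normal rats were left untreated. With 1 array per muscle there are no replicates, and no p-value is given. The sources used here state neither the number of animals per array nor the hour of the day at which each muscle was taken. In addition, the denervated array alone lay on a second slide with its own scan, so denervation, slide and scan cannot be told apart.

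The muscles carried the marks their labels call for. On the denervated array the fetal acetylcholine receptor subunit Chrng was 4.72 ± 0.20 log2 units above normal soleus, Chrna1 3.62 ± 0.20, Runx1 3.24 ± 0.20, Myog 1.86 ± 0.20 and Ncam1 1.09 ± 0.22. Actn3, Myh1 and Myh4, of fast fibres, were 9.59, 7.37 and 7.22 log2 units higher in plantaris than in normal soleus, whereas Myh7 and Tnni1, of slow fibres, stood at -2.62 and -3.19. On the denervated array 8 of 9 slow fibre genes were at least 2-fold lower, Tnni1 at -1.20 among them, where 13.5% of all genes were. That count was 4 with quantile normalization and 6 with the authors' deposited values. The skeletal actin Acta1 stood at -2.44. Signals are given as processed signal of the scanner software, and, to set arrays side by side, as a multiple of the array's upper quartile, the 75th percentile of its 58717 non-control spots (1217 on the denervated, 744 on the plantaris and 903 on the normal soleus array). A fold is the log2 difference of these multiples, and ± is the error from the scanner software, which covers measurement only.

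Among the clock genes the denervated array stood apart mainly at Bmal1 and Per1, which were lower than in normal soleus, and at Per2, which was higher. The brightest probe of a gene stands for it in counts. By that rule 1 of 10 genes was at least 2-fold higher and 2 were at least 2-fold lower, where 8.78% of 11230 measured genes were higher, 13.5% lower and 22.3% apart in either direction. These shares are 986 genes higher and 1518 lower; with the authors' deposited values the split was 1568 higher and 1107 lower. The share of clock genes past 2-fold was thus near that of all genes. The median fold of the 10 was -0.63 log2 units, against 0.03 over all genes. Of the 10, 7 lay below 0, as did 5441 of the 11230 measured genes. In plantaris over normal soleus, 1 of 10 was at least 2-fold higher and 0 lower, where 5.73% of 10975 genes were higher, 6.04% lower and 11.8% apart either way. The median of the 10 there was -0.03, against 0.02 over all genes, and 9 of 10 lay within 0.5 log2 units of 0. Both comparisons use the same normal soleus array.

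**Figure D1:**
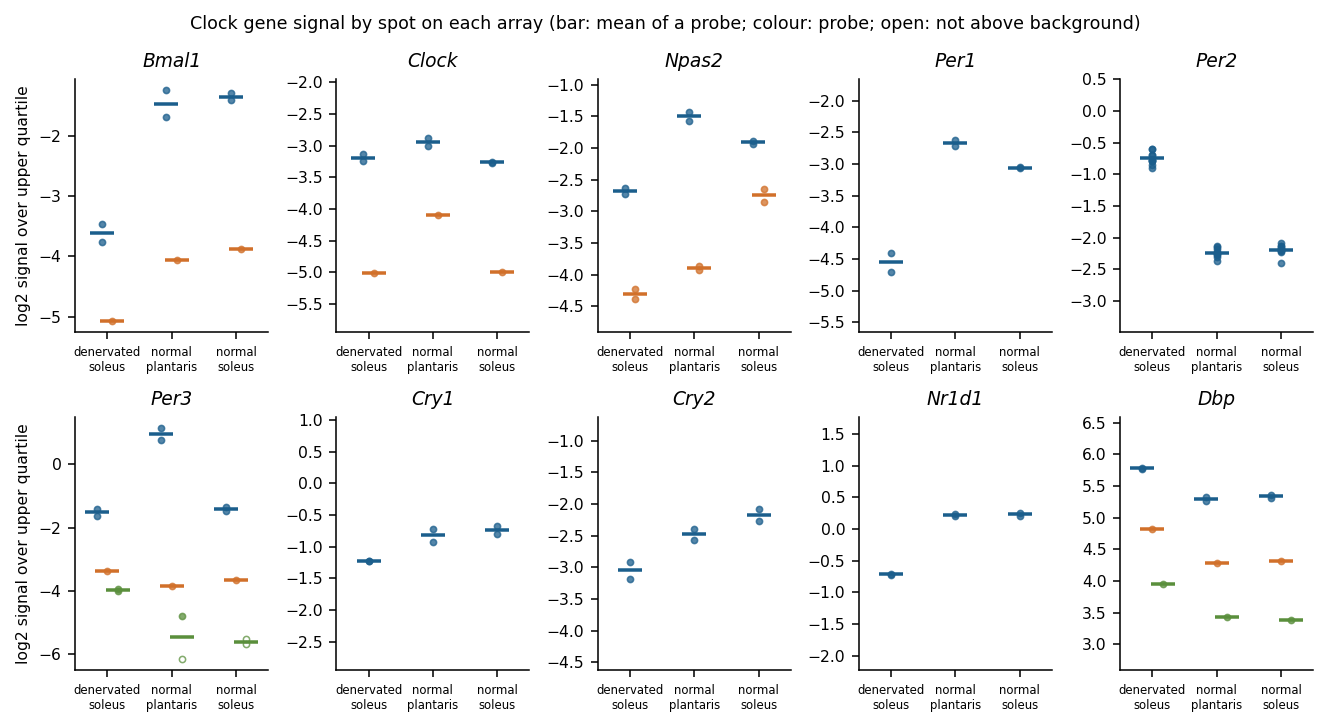
Log2 signal over the array's upper quartile (vertical axis, 1 panel per gene, each with its own range) on the denervated soleus, normal plantaris and normal soleus arrays; points are spots, bars are probe means, colours are probes of a gene and open points are spots not well above background. Bmal1 and Per1 are lower and Per2 is higher on the denervated array than on both others, and Per3 is high in plantaris on 1 of its 3 probes.

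Promoters of Bmal1, Per2 and Nr1d1 are shown because these genes stand for the feedback arms of the loop. By brightest probe, Bmal1 had the lowest and Per2 the highest denervated fold of the clock genes, although Per1 lay slightly further from normal soleus than Per2. Each line gives the 250 bases before the gene's start, 5′ to 3′ on the gene's strand, from RefSeq on build GRCr8. Capitals mark matches to the E-box CACGTG, its variant CACGTT, the D-box TTATGTAA or TTACGTAA, or a core of the ROR element, ANTNGGTCA, each searched on both strands. BMAL1 with CLOCK binds E-boxes, DBP and its relatives bind D-boxes, and REV-ERB and ROR proteins bind the ROR element.
Bmal1 at chr1:176766078-176766327, plus strand: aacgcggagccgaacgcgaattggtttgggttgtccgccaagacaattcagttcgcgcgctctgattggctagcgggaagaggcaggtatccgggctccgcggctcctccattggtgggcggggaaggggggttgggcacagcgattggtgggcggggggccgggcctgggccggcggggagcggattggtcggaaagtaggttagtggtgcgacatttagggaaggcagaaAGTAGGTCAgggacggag
Per2 at chr9:99496994-99497243, minus strand: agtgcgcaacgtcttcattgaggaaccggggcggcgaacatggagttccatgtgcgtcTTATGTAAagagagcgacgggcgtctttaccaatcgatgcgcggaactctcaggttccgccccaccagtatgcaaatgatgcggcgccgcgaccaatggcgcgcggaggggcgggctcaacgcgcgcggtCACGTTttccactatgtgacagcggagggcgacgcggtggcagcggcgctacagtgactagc
Nr1d1, the more downstream of its 2 windows, at chr10:84229455-84229704, minus strand: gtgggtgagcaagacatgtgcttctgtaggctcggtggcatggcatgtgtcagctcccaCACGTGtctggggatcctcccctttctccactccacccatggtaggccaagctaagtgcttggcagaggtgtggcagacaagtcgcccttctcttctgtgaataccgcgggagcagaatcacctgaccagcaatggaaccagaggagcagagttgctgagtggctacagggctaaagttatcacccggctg

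The Bmal1 line holds 1 ROR element core at position -18, counted from the gene's start to the first base of the match. The Per2 line holds 1 D-box at -192 and 1 CACGTT at -62. The Nr1d1 line holds 1 CACGTG at -191, and its other window holds 1 CACGTT, on the opposite strand, at -174. Windows of 300 bases, 250 before and 50 after the start, were there for 9 of the 10 genes, 11 windows in all. The only other match in them was 1 CACGTT in Cry2, on the opposite strand at -212, and Clock, Npas2, Per1, Per3 and Dbp had none in these windows. Of 33469 such rat windows 6.42% hold CACGTG, 4.83% CACGTT, 2.49% the ROR element core, 0.893% TTATGTAA and 0.12% TTACGTAA. The matches are letters in a window and describe no binding.

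Bmal1, the activator without which the loop stops in mice, gave processed signals of 89.4 and 110.0 on its brighter probe in denervated soleus, 312 and 230.0 in plantaris, and 339 and 366 in normal soleus. As multiples of the upper quartile these were 0.0815 in denervated soleus, 0.360 in plantaris and 0.390 in normal soleus. Both spots of the denervated array lay below all spots of the other arrays, while plantaris and normal soleus differed by less than the error. These spots are repeats on 1 array per muscle, and how many other probes separate this way was not counted. The fold of denervated over normal soleus was -2.26 ± 0.22, so the signal was 4.78-fold lower. The fold of plantaris over normal soleus was -0.11 ± 0.21. Of all genes measured, 2.23% had a lower fold in the denervated comparison. The dimmer probe, with 1 spot of 36.4 in denervated soleus, 44.9 in plantaris and 61.5 in normal soleus, ran the same way with folds of -1.19 ± 0.33 for the denervated muscle and -0.17 ± 0.27 for plantaris. With normexp background correction, which takes in the local background and adds an offset of 50, the brighter probe stood at -1.74. The dimmer probe then stood at -0.80 and no longer reached 2-fold.

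Clock, the partner of BMAL1, did not follow Bmal1. Its brighter probe read 138 and 129 in denervated soleus, 101 and 92.7 in plantaris, and 94.0 and 93.7 in normal soleus. Set over each array's upper quartile these came to 0.110 in denervated soleus, 0.130 in plantaris and 0.104 in normal soleus, with all 3 arrays close together. The folds were 0.08 ± 0.22 for denervated and 0.32 ± 0.22 for plantaris, each over normal soleus. The dimmer probe, with 1 spot of 37.8 in denervated soleus, 43.6 in plantaris and 28.4 in normal soleus, gave -0.02 ± 0.36 for denervated soleus and 0.90 ± 0.34 for plantaris (0.39 with normexp background).

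Npas2, which can take the place of CLOCK, was lower on the denervated array on both probes and gave no single answer for plantaris. Its brighter probe read 197 and 185 in denervated soleus, 276 and 251 in plantaris, and 244 and 237 in normal soleus, with folds over normal soleus of -0.76 ± 0.21 for the denervated muscle and 0.41 ± 0.21 for plantaris. Its dimmer probe read 58.3 and 65.4 in denervated soleus, 49.1 and 51.4 in plantaris, and 145 and 125 in normal soleus. On that probe both other muscles lay below normal soleus, by folds of -1.56 ± 0.25 for the denervated muscle and -1.14 ± 0.25 for plantaris. The probes thus differ in sign for plantaris, and with normexp background the dimmer one stood there at -0.52. With the mean over probes Npas2 reached -1.16 on the denervated array and would join the genes at least 2-fold lower.

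Of the repressors, Per2 was the clock gene with the highest fold on the denervated array when each gene is read by its brightest probe, while a faint probe of Per3 had a bound above it. The Per2 probe is spotted 10 times on each array. The signals ran from 651 over a median of 708 to 806 in denervated soleus, from 145 over 157 to 170 in the 9 plantaris spots left after 1 outlier, and from 172 over 199 to 212 in normal soleus. As multiples of the upper quartile the spots covered 0.534 to 0.662 in denervated soleus, 0.194 to 0.229 in plantaris and 0.190 to 0.235 in normal soleus. The denervated spots did not overlap those of either normal muscle, and the spots of the normal muscles overlapped each other. The spots repeat 1 probe on 1 array per muscle, so their separation describes measurement and not animals. How many other probes separate this way was not counted. Repeat spots spread with an SD of 0.101, 0.0766 and 0.0818 log2 units on the denervated, plantaris and normal soleus arrays. The fold was 1.44 ± 0.21 for denervated over normal soleus, or 2.72-fold, and -0.04 ± 0.21 for plantaris over normal soleus. Of all genes measured, 95.9% had a lower fold in the denervated comparison. Over the alternative ways of processing the denervated fold ran from 1.16 to 1.69.

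Per1 differed in the other direction. Its spots read 57.5 and 46.9 in denervated soleus, 113 and 122 in plantaris, and 108 and 109 in normal soleus. As multiples of the upper quartile they were 0.0427 in denervated soleus, 0.157 in plantaris and 0.120 in normal soleus, with the denervated array lowest. The fold was -1.49 ± 0.28 for denervated over normal soleus, or 2.82-fold lower. It was 0.39 ± 0.23 for plantaris over normal soleus. The probe is dim, and with normexp background the denervated fold was -0.91, short of 2-fold.

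Per3, the Period gene least needed for the rhythm itself in mice, gave a different picture on each of its 3 probes. The brightest read 455 and 395 in denervated soleus, 1631 and 1268 in plantaris, and 355 and 326 in normal soleus. On it plantaris stood apart by 2.36 ± 0.21, or 5.13-fold, and the denervated muscle did not (-0.11 ± 0.21). The second probe, with 1 spot of 117 in denervated soleus, 51.4 in plantaris and 71.5 in normal soleus, gave folds of 0.28 ± 0.24 for the denervated muscle and -0.20 ± 0.25 for plantaris. The faintest read 75.8 and 79.9 in denervated soleus, 26.9 and 10.4 in plantaris, and 17.5 and 19.4 in normal soleus, where neither spot was well above background. Its fold of denervated over normal soleus is therefore marked as a bound, taken against its own faint signal at 1.65 ± 0.49. With normexp background the fold was 0.32, so 1.65 is not a firm lower limit. In plantaris 1 of the 2 spots of this probe was above background. So the 1 clock gene counted as higher in plantaris rests on 1 probe of 3, and with the mean or the median over probes no clock gene passed 2-fold there.

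The Cryptochromes, the partners of the PER proteins in repression, were both below normal soleus on the denervated array. Cry1 read 519 and 523 in denervated soleus, 452 and 393 in plantaris, and 519 and 565 in normal soleus, with folds of -0.49 ± 0.21 for the denervated muscle and -0.08 ± 0.21 for plantaris. Cry2 read 134.5 and 161 in denervated soleus, 126 and 141 in plantaris, and 214 and 186 in normal soleus, with folds of -0.87 ± 0.22 for the denervated muscle and -0.30 ± 0.21 for plantaris. Both denervated folds exceeded the measurement error and stayed under 2-fold. Before scaling, the denervated Cry1 spots lay within the range of the normal soleus spots, so its fold rests on the scaling of the arrays. With the authors' deposited values the denervated folds were -0.24 for Cry1 and -0.63 for Cry2.

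Nr1d1, whose product represses Bmal1, was lower together with Bmal1 on the denervated array. It read 746 and 738 in denervated soleus, 857 and 875 in plantaris, and 1037 and 1081 in normal soleus. Over the upper quartile this was 0.610 in denervated soleus, 1.16 in plantaris and 1.17 in normal soleus, with the normal muscles within the error of each other and the denervated one lower. The fold was -0.94 ± 0.20 for denervated and -0.01 ± 0.20 for plantaris, and in the 9 alternatives the denervated fold ran from -0.96 to -0.70 and never reached 2-fold.

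Dbp, an output gene driven by the BMAL1 pair, was slightly higher on the denervated array on all 3 probes. The brightest read 67407.5 and 66115.0 in denervated soleus, 29870.2 and 28556.7 in plantaris, and 35718.5 and 37194.6 in normal soleus. Over the upper quartile this was 54.8 in denervated soleus, 39.3 in plantaris and 40.4 in normal soleus, highest on the denervated array and close together on the others. The 3 probes gave folds of 0.44, 0.50 and 0.57 for the denervated muscle, each ± 0.20, and -0.04, -0.03 and 0.04 for plantaris, each ± 0.20. With quantile normalization the brightest probe stood at 0.94 on the denervated array.

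**Figure D2:**
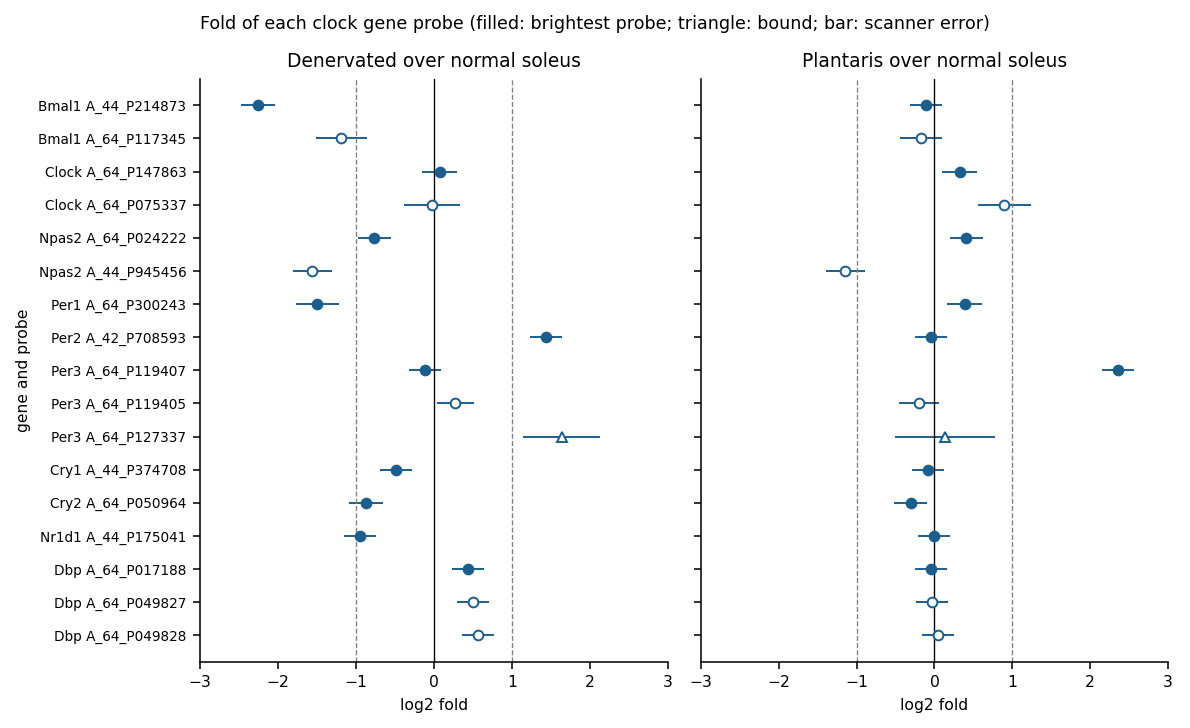
Log2 fold over normal soleus (horizontal axis) of each of the 17 probes for denervated soleus and for plantaris; filled points are the brightest probe of a gene, open points its other probes, triangles bounds, bars the scanner software's error and dashed lines 2-fold. In the denervated comparison 2 probes lie at least 2-fold higher (Per2 and the bound of Per3) and 4 lower (both of Bmal1, Per1 and the dimmer of Npas2). In plantaris 1 lies higher (Per3) and 1 lower (the dimmer of Npas2). The share of all probes past 2-fold was not counted. Of all genes, 8.78% were higher and 13.5% lower in the denervated comparison, and 5.73% and 6.04% in plantaris.

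Across genes, 8 of 10 differed from normal soleus by more than the measurement error on the denervated array, and the remaining ones were Clock and Per3. In plantaris 5 did so, namely Clock, Npas2, Per1, Per3 and Cry2. Apart from Per3 none of these exceeded 0.41 log2 units on the brightest probe. How many of all genes differed by more than the error was not counted, so these counts show no trait particular to the clock genes. For Bmal1, Per2, Cry1, Nr1d1 and Dbp the plantaris and normal soleus arrays did not differ beyond the error. Within the Period family the denervated folds of Per1 and Per2 were opposite, at -1.49 and 1.44.

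**Figure D3:**
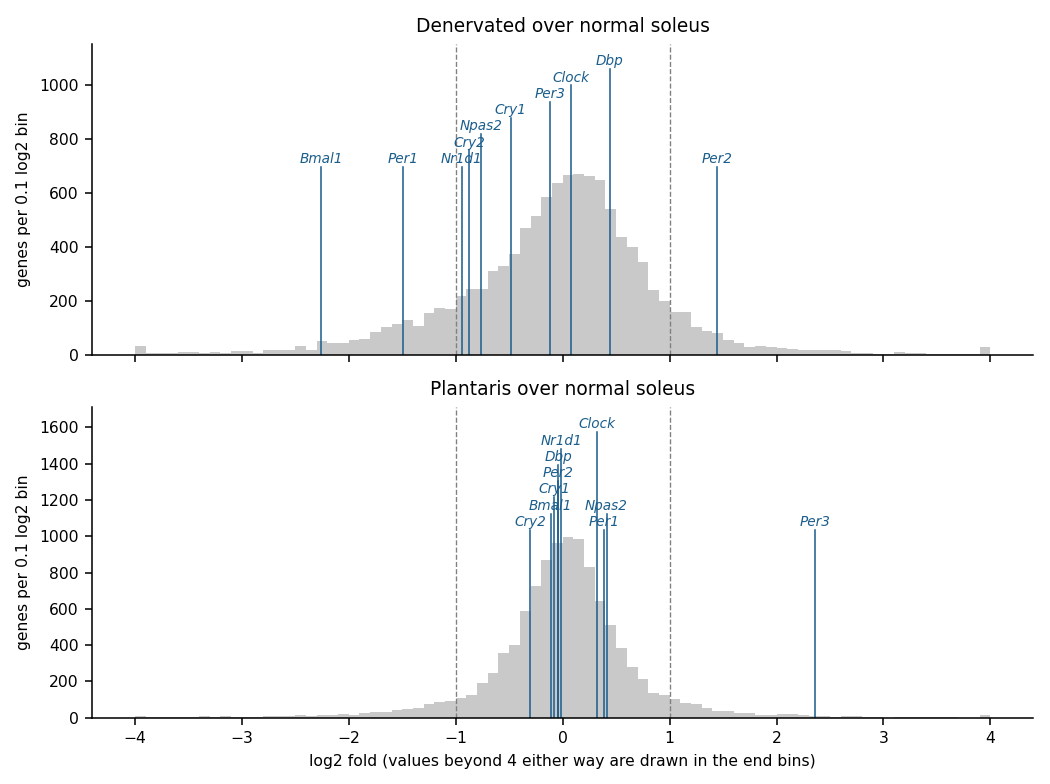
Number of genes per 0.1 log2 bin (vertical axis) by log2 fold over normal soleus (horizontal axis) for denervated soleus (top) and plantaris (bottom), with the 10 clock genes marked and 2-fold dashed. Clock genes spread from -2.26 to 1.44 in the denervated comparison, and in plantaris all but Per3, at 2.36, lie between -0.30 and 0.41.

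The markers of other tissues also differed between the arrays. In bulk muscle, fewer cells of a type and less RNA per cell cannot be told apart. The summed signal of 6 adipocyte markers was 67.7 times the upper quartile on the denervated, 13.0 on the plantaris and 15.4 on the normal soleus array, with Lep not well above background on any. That of 8 fibroblast and tendon markers was 232 in denervated soleus, 193 in plantaris and 96.4 in normal soleus. On the denervated array all 8 lay above normal soleus (median 0.91). In plantaris the median was 0.35, with Col1a1 at 1.59 and Fmod at 1.36, which carry most of the sum, and with Scx at -0.85, Lum at -0.43 and Pdgfra at -0.30. The 5 smooth muscle markers summed to 4.87 in denervated soleus, 5.94 in plantaris and 7.22 in normal soleus, and 6 macrophage markers to 7.89 in denervated soleus, 4.57 in plantaris and 6.61 in normal soleus. The 6 Schwann cell and nerve markers summed to 9.96 in denervated soleus, 6.66 in plantaris and 6.97 in normal soleus. Of 5 endothelial markers 3 were at least 2-fold lower on the denervated array (median -1.29) and 1 in plantaris (median -0.23). Of all genes 13.5% and 6.04% were lower in these comparisons. The slow fibre list of 9 summed to 1240 in denervated soleus, 543 in plantaris and 3040 in normal soleus, and 8 fast fibre genes to 606 in denervated soleus, 4040 in plantaris and 491 in normal soleus. The lymphocyte markers Cd3e, Cd8a and Cd79b were not well above background on any array. The part of these shifts in the clock gene values was not tested.

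Other transcription factors of the clock were read from a list of 12, of which 7 were measured. On the denervated array 2 were at least 2-fold lower and 0 higher, where 13.5% and 8.78% of all genes were. The median of the 7 was 0.22. Nfil3, a repressor that competes with DBP at D-boxes, was at -2.20 ± 0.25 (-1.43 with normexp background), and Bmal2, a relative of Bmal1, at -1.53 ± 0.24. In plantaris none of the 7 passed 2-fold, where 11.8% of all genes did, and the median of the 7 was 0.48. The relatives of DBP and REV-ERB alpha, Tef and Nr1d2, stayed short of 2-fold at 0.97 and 0.52 on the denervated array and at 0.56 and 0.57 in plantaris, and they are named here after their values were seen. Tef passed 2-fold on the denervated array with the authors' deposited values (1.22) and with quantile normalization (1.20).

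Of 10 measured kinases, ubiquitin ligases and partners of clock proteins, 1 was at least 2-fold lower and 0 higher on the denervated array. Of all genes 13.5% were lower and 8.78% higher there, and the median of the 10 was -0.28. By the authors' deposited values 1 was also higher and the median was -0.04, and with the mean or median over probes 0 were lower. The lower one, Csnk1e, which encodes a kinase of PER proteins, was at -1.29 ± 0.22 on its brightest probe and at -0.01 and 0.17 on its other probes. Probes also differed the other way. Csnk1d was at -0.24 on its brightest probe and at -1.30 ± 0.21 on its dimmer one, and Cipc at -0.34 and -0.99. In plantaris 0 of 10 passed 2-fold, where 11.8% of all genes did. The median of the 10 was 0.09, and -0.02 by the authors' deposited values.

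Of 11 genes known as clock-controlled outputs, 2 were at least 2-fold higher and 5 lower on the denervated array (median -0.94), where 8.78% of all genes were higher and 13.5% lower. With the authors' deposited values 3 were lower, and with normexp background 1 was higher and 4 lower. In plantaris 2 were higher and 0 lower (median 0.21), where 5.73% and 6.04% of all genes were. Alas1, the first enzyme of heme synthesis, stood at -2.33 ± 0.20 on the denervated array. There Pdk4, a brake on pyruvate use, was at -1.79 ± 0.21, the fatty acid regulator Ppara at -1.42 ± 0.23 and Nampt, of NAD synthesis, at -1.24 ± 0.21. In plantaris these 4 lay between -0.21 and 0.31. The muscle regulator Myod1 was higher in both, by 4.35 ± 0.20 in denervated soleus and 2.03 ± 0.20 in plantaris, and Ucp3 was higher in plantaris (1.47 ± 0.20) and at 0.21 ± 0.20 on the denervated array.

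Glucocorticoids and activity also reach clock genes, Per1 and Per2 among them, so both gene groups were read. Of 11 glucocorticoid-responsive genes 2 were at least 2-fold higher and 0 lower on the denervated array (median 0.17). Of all genes 8.78% were higher and 13.5% lower there. The 2 of the list were the metallothioneins Mt1 at 1.85 ± 0.20 and Mt2A at 1.15 ± 0.20. Sgk1, at 0.998 ± 0.21, fell just short of 2-fold on the denervated array. With the authors' deposited values 3 were higher there and the median was 0.41. In plantaris 2 were higher and 2 lower (median 0.34), against 5.73% and 6.04% of all genes. Glul and Sgk1 stood there at 1.19 and 1.16, and Mt2A and Mt1 at -1.46 and -1.36, each ± 0.20 (Sgk1 at 0.98 with normexp background). Fkbp5 and Tsc22d3, among the best known of this list, were at 0.50 and -0.01 on the denervated array and at 0.85 and 0.51 in plantaris, and are named after their values were seen. Of 11 immediate early genes 0 were higher and 4 lower on the denervated array (median -0.51), against the same 8.78% and 13.5% of all genes. With the authors' deposited values 3 were lower. The 4 were Nr4a1 at -2.78 ± 0.20, Nr4a2 at -2.22 ± 0.21, the phosphatase Dusp1 at -1.74 ± 0.21 and Atf3 at -1.21 ± 0.20 (-0.96 with the authors' deposited values). In plantaris 2 were higher and 0 lower (median 0.31), against 5.73% and 6.04% of all genes. The 2 of the list were Nr4a1, by 1.62 ± 0.20, and Nr4a3, by 2.30 ± 0.45. The Nr4a3 fold was taken against a normal soleus signal not well above background, and was 0.97 with normexp background.

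**Figure D4:**
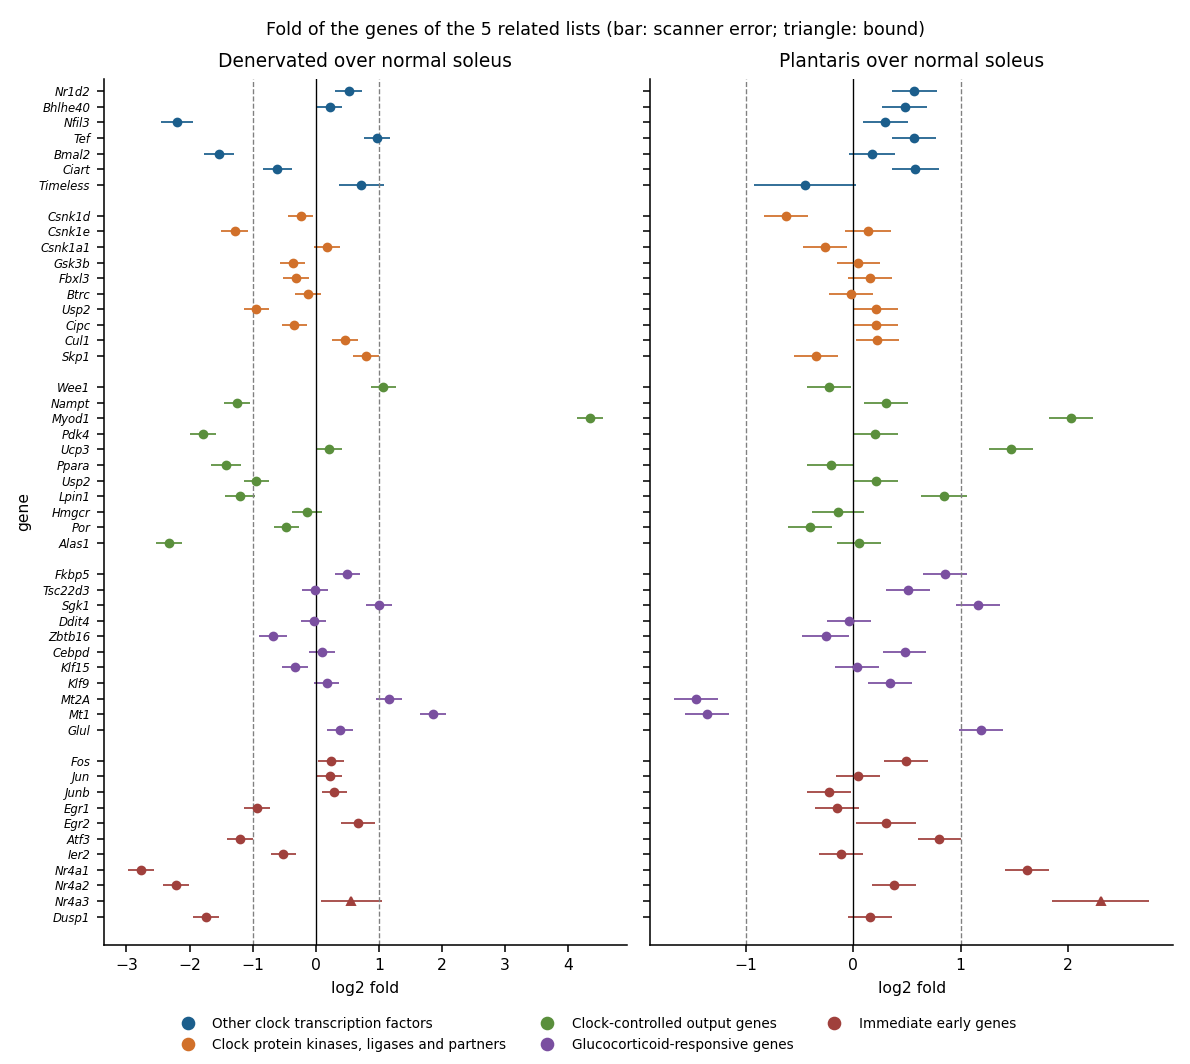
Log2 fold over normal soleus (horizontal axis) of the measured genes of 5 related lists for denervated soleus (left) and plantaris (right); colours are lists, bars the scanner software's error, triangles bounds and dashed lines 2-fold. On the low side of 2-fold lie 5 clock-controlled outputs and 4 immediate early genes in denervated soleus (3 and 3 with the authors' deposited values) and 0 of either in plantaris; all genes also have more on that side in denervated soleus (13.5%) than in plantaris (6.04%).

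The genes most like Bmal1 were sought by the distance between pairs of log2 folds, denervated and plantaris over normal soleus, among 9854 other genes well above background on all 3 arrays. The 5 closest were Rasal1 (0.02 log2 units away), Kcnma1 (0.05), Csf2ra (0.06), Dnajc16 (0.08) and Atoh1 (0.08), and 24 genes lay within 0.25. Closest to Per2 were Lilra5 (0.02), Il6r (0.04), Gas2 (0.05), Aebp1 (0.06) and Pde1a (0.07), with 57 genes within 0.25. These distances rest on 3 arrays that share the normal soleus and describe likeness of values only.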

How the data were processed

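Per the file headers, Cy3-labelled RNA of each muscle was read with Agilent Feature Extraction 10.10.1.1, whose processed signal is a linear intensity, background-subtracted and detrended within the array and not yet scaled to other arrays. Other columns, per the file headers, hold flags of 0 or 1 for spots above background, saturated or outlying. The authors also deposited a table of intensities, which equal the processed signal times 1 factor per array. Here log2 processed signal was centred on each array's 75th percentile. No spot was saturated (0), and 467 to 569 outlier spots per array were dropped. Repeat spots were averaged on the log2 scale, and 50 percent of them had to be well above background for the probe to be so. Of 30367 probes 18005 matched a RefSeq symbol. Genes faint on both arrays of a comparison were left out. For genes faint on 1 of them the fold is marked as a bound, taken against the faintest signal above background or its own, whichever is larger. Such a bound is not a firm limit, because another background correction can give a smaller fold. Probes were designed on an older assembly, so no probe positions are given. Counts use a rule of size (2-fold), not a test. The count procedure was tested on simulated data, in which spot noise alone took some unchanged genes past 2-fold. The files hold no mean spot signal, so normexp (limma 3.58.1, offset 50) used median spot and background signals.

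The members and lists were chosen with earlier results of these data known. Named were all members, up to 6 genes per list past 2-fold, the 5 genes nearest Bmal1 and Per2, and muscle and denervation markers.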

Additional observations from a re-analysis of the deposited data

How the results depend on the processing

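In 9 alternatives 8 of 10 clock genes stayed on their side of 2-fold on the denervated array and 9 of 10 in plantaris. The exceptions were Npas2 and Per1 in the first and Per3 in the second. With normexp background 1 clock gene was at least 2-fold lower on the denervated array, and genes past 2-fold numbered 367 higher and 1001 lower there and 309 higher and 283 lower in plantaris. With the authors' deposited values, which shift denervated folds by 0.24 and plantaris folds by -0.11 log2 units, the clock median on the denervated array was -0.38 and the split of all genes 1568 higher and 1107 lower, against 986 and 1518. With genes above background on both arrays, 433 were lower in plantaris. With the mean or the median over probes 0 clock genes were higher in plantaris, and Per3 turned to -0.20 with the median. In plantaris the signs of Per2, Nr1d1 and Dbp turned with centring on the median and that of Npas2 with the mean or median over probes, and on the denervated array those of Clock (normexp) and Per3 (authors' values, mean and median over probes), all at folds under 2. The cause of these changes was not tested. The median measurement error of a fold over all genes was 0.206 log2 units, which limits what small folds can show. No paired analysis was possible because each muscle has 1 array.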
